A study of Mus musculus with 16 samples.

Results

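The data describe how the loss of Grn and the loss of Trem2 combine in the mouse brain. For each gene, an interaction was formed on the log2(value + 1) scale as the double knockout minus the Grn knockout minus the Trem2 knockout plus WT. It is 0 where the fold change that goes with losing one gene is the same whether or not the other gene is present, so an additive gene on this scale is one whose fold changes multiply. Of 770 genes on the panel, 708 had a mean normalized count of at least 20 over the 16 animals and were tested, and 62 were not. At this limit, Ager at 19.5 and Ccl12 at 19.8 were left out, and Dll4 and Cxcl10, both at 20.2, were kept.

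Transcripts were counted one by one with barcoded probes of a neuropathology panel (nCounter) in total RNA of whole brain. All 16 mice were female and 6 months old, with 4 mice in each of 4 genotypes. They were Grn and Trem2 double knockout mice, Grn knockout mice, Trem2 knockout mice and wild type mice (WT). The sources used here do not give the strain or how the null alleles were made. The title of the series puts the question as whether losing TREM2 lowers the hyperactivation of progranulin-deficient microglia and whether it alters lysosomal pathology.

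Grn encodes progranulin, a secreted glycoprotein that is delivered to lysosomes and processed there into granulins. Its loss impairs lysosomal function and leaves microglia, the resident macrophages of the brain, in an activated state. Trem2 encodes a lipid-sensing receptor on the surface of microglia that signals through the adaptor TYROBP. It is required for microglia to enter the activated state seen around dying cells and protein deposits.

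Each animal gave 477113 to 767742 counts over the panel genes, and the deposited values are scaled to 10 reference genes. Markers of the expected brain cells were measured well above the negative control probes. WT means were 6775 for the neuronal surface protein Thy1, 11549 for the astrocytic glutamate transporter Slc1a2, 3105 for myelin basic protein Mbp and 533 for the microglial growth factor receptor Csf1r, against 18.3 for scaled negative controls in WT. The scaled negative controls averaged 14.7 ± 1.97 in double knockouts, 13.4 ± 1.90 in Grn knockouts, 14.2 ± 2.33 in Trem2 knockouts and 18.3 ± 3.003 in WT (SD, n = 4 each). The same interaction sum was therefore 0.47 on the log2 scale for the negative controls, against 0.04 for the summed gene values. The negative controls had their highest mean in WT, where 2 of 4 animals (15.6 and 15.99) lay within the range of the double knockout (12.1 to 16.8), and the interaction of the controls has no test. Their part in the interactions of weak genes was not tested. In RNA of whole brain, fewer cells of a type and less RNA per cell cannot be told apart.

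No gene departed from additivity after adjustment over the panel. The limma fit called 0 of 708 interactions at an adjusted p of 0.05 (0% of the genes tested), and the smallest adjusted p was 0.955. At an unadjusted p under 0.05 there were 24 genes (3.39%), 19 of them with an interaction above 0 (2.68%) and 5 below 0 (0.706%), where 35.4 such genes would be expected by chance. The count was 14 without Trem2 knockout replicate 1, 37 without Trem2 knockout replicate 3 and 47 without Trem2 knockout replicate 4. With 1 animal left out at a time, the smallest limma adjusted p was never below 0.570, and 0 genes were called each time.

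A p that misses the threshold does not show that a gene is additive, so the intervals were read as well. The 95% interval of the interaction lay within -0.5 and 0.5 for 398 genes (56.2%), which are called bounded near additivity below. It lay within -1 and 1 for 655 genes (92.5%). The limit of 0.5 is the same for every gene, so a gene with little response to either loss can be bounded as well. The interactions had a median of 0.03 and quartiles of -0.07 and 0.14. They were above 0 in 422 genes (59.6%) and below 0 in 286 (40.4%).

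How closely additivity could be bounded followed the level of the gene. Of 86 genes with a mean from 20 to 50 normalized counts, 3 were bounded (3.49%), with a median standard error of 0.31. Of 161 genes from 50 to 200, 48 were bounded (29.8%). Of 259 genes from 200 to 1000, 177 were bounded (68.3%), and of 202 genes at 1000 or more, 170 were bounded (84.2%) with a median standard error of 0.12. Among these abundant genes 69.3% of interactions were above 0, with a median of 0.04.

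**Figure D1:**
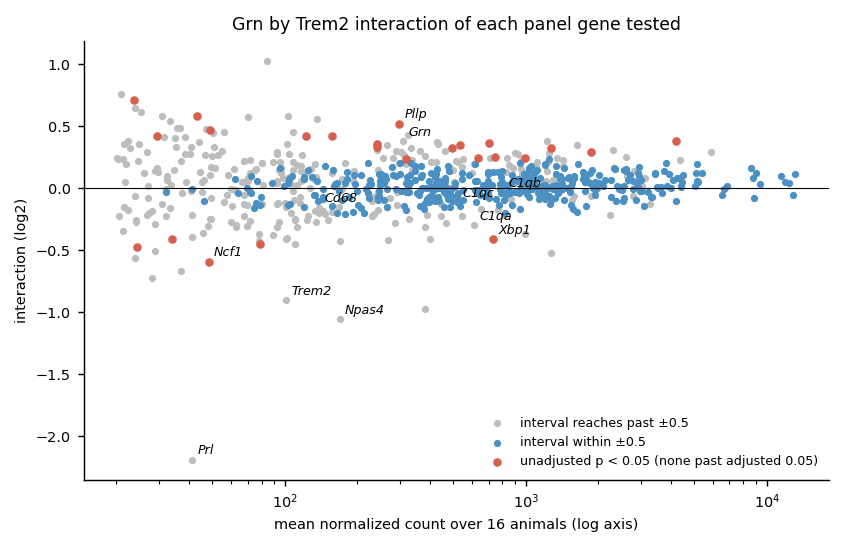
Interaction of each of the 708 genes tested (y axis, log2) against its mean normalized count over 16 animals (x axis, log scale). Points are genes; blue marks an interval within -0.5 and 0.5 (398 genes), red an unadjusted p under 0.05 (24 genes) and grey the rest. The spread narrows with the level, and Prl, Npas4 and Trem2 are among the lowest points.

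The knocked-out genes checked the labels. Grn measured 23.1, 14.5, 12.5 and 17.7 in double knockouts, 11.8, 12.7, 9.48 and 20.4 in Grn knockouts, 544, 609.9, 580.2 and 620.1 in Trem2 knockouts and 662, 565, 594 and 647 in WT. All 8 animals lacking Grn lay below the background threshold of their own negative controls, and no other animal did. Trem2 measured 5.02, 17.4, 13.5 and 20.4 in double knockouts, 239.6, 251, 188 and 248 in Grn knockouts, 35.4, 10.2, 8.69 and 14.8 in Trem2 knockouts and 159.9, 128, 144 and 140.1 in WT. Both groups lacking Trem2 lay below every other animal, and 7 of these 8 animals were below the threshold, the exception being Trem2 knockout replicate 1. The 4 Grn knockout animals were above the 4 WT animals without overlap for Trem2, but the difference did not pass (log2 difference 0.69, limma adjusted p = 0.926). That fit shares 1 spread per gene over all 4 groups. It includes the background values of the double knockout (14.1 ± 6.66, mean ± SD) and the Trem2 knockout (17.3 ± 12.4). The Grn knockout had 231.6 ± 29.3 and WT 143 ± 13.2, so the adjusted p does not measure the spread of these 2 groups alone.

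For these 2 genes the interaction has no biological reading, because a deleted transcript cannot respond to the other deletion. The Trem2 interaction was -0.90 (95% interval -2.06 to 0.26, limma adjusted p = 0.97) and the Grn interaction was 0.38 (-0.19 to 0.95). With unlogged values and a trended variance, Trem2 was the 1 gene called for an interaction, at -91.7 normalized counts (limma adjusted p = 0.0202). That value restates that Trem2 was higher in the Grn knockout than in WT while both genotypes lacking Trem2 were at background.

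The 3 chains of C1q and Cd68 were the genes besides Grn and Trem2 that responded to a deletion when each effect was averaged over the state of the other gene. C1q is the recognition molecule of the classical complement pathway and is made in the brain mainly by microglia. Cd68 is a glycoprotein of endosomes and lysosomes of phagocytic cells. Averaged over the Trem2 genotypes, losing Grn raised C1qa, C1qb, C1qc and Cd68, which with Grn itself made 5 called genes (0.706% of 708). Averaged over the Grn genotypes, losing Trem2 lowered C1qb, which with Trem2 itself made 2 called genes (0.282%). Within single backgrounds, the double knockout differed from the Trem2 knockout in 3 genes (0.424%; C1qb, Cd68 and Grn) and from the Grn knockout in 2 (0.282%; C1qb and Trem2). The Grn knockout differed from WT in 4 genes (0.565%; C1qa, C1qb, Cd68 and Grn) and the Trem2 knockout from WT in 1 (0.141%; Trem2). With scaling to the positive control probes, limma gave all 708 genes the same SE (0.238 for an averaged effect), and the averaged Grn calls of C1qa, C1qb and C1qc (adjusted p 0.213, 0.213 and 0.606) and the averaged Trem2 call of C1qb (0.950) were lost. With that scaling and each gene's own variance in the linear model, a setting added after seeing the data, the averaged Grn call of Cd68 was lost too (adjusted p 0.246 by an unmoderated limma fit), and Grn and Trem2 alone were called.

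The upstream sequences of C1qb, C1qc and Cd68 are shown because the averaged loss of Grn raised these genes. C1qa, which it also raised, is not shown because the sequences used held no entry for it. Those shown are 250 bases before the annotated gene start, from RefSeq (GRCm38.p6), on the minus strand. Of the 770 panel genes, 762 matched an entry. Capitals mark GAGGAA, the core bound by the myeloid factor PU.1 (Spi1), or its reverse complement TTCCTC.
C1qb, chr4:136886201-136886450: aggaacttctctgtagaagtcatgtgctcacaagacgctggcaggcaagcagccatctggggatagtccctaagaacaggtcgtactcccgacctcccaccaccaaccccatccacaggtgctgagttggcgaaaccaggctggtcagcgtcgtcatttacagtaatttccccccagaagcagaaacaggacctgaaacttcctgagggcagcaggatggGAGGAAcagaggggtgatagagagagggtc
C1qc, chr4:136892915-136893164: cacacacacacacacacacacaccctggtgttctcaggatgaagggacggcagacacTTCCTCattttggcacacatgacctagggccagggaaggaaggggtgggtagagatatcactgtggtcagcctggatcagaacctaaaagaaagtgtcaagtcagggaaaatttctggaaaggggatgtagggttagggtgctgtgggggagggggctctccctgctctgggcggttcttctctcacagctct
Cd68, chr11:69666171-69666420: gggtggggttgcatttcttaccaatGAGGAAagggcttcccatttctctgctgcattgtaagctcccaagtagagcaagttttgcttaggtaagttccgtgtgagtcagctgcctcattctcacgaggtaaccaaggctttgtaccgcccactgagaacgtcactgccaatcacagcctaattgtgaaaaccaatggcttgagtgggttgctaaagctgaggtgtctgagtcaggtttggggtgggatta
The match begins 30 bases before the start in C1qb, 193 in C1qc, where it is on the opposite strand, and 225 in Cd68. With both strands searched over these 250 bases, 7639 of 32851 promoters (23.3%) and 179 of 762 promoters of panel genes (23.5%) held the motif, so a match is common and describes the sequence only.

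C1qb, the B chain, had the interaction nearest 0 and the narrowest interval of these 4 genes. It measured 817, 797, 819 and 774 in double knockouts, 956, 1180.4, 983 and 1242 in Grn knockouts, 599, 551, 589 and 545 in Trem2 knockouts and 809, 728, 775 and 713 in WT. All 4 Grn knockout animals were above every other animal, all 4 Trem2 knockout animals were below every other animal, and the double knockout overlapped WT. Losing Grn raised C1qb by 0.49 on the log2 scale in mice lacking Trem2 (SE 0.08, limma adjusted p = 0.00998) and by 0.52 in mice with Trem2 (SE 0.08, limma adjusted p = 0.00353). The effect of losing Trem2 was -0.43 in mice lacking Grn (limma adjusted p = 0.0353) and -0.40 in mice with Grn (limma adjusted p = 0.0698). In both pairs the effects in the 2 backgrounds were nearly the same size. The interaction was -0.03 (95% interval -0.28 to 0.22, limma adjusted p = 0.998). From the other 3 groups an additive double knockout was expected at 818 normalized counts, and the mean was 802.

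Several single-background calls of C1qb changed when 1 animal was left out. The double knockout against the Grn knockout lost its call in 12 of 16 such fits, those without double knockout replicate 1, 2, 3 or 4, Grn knockout replicate 2 or 4, Trem2 knockout replicate 1, 2, 3 or 4, or WT replicate 2 or 3 (limma adjusted p up to 0.196, without Grn knockout replicate 2). The double knockout against the Trem2 knockout lost it without Trem2 knockout replicate 4 (limma adjusted p = 0.0516) and on unlogged values (0.164, and 0.0914 with a trended variance). With scaling to the positive controls, the double knockout lost its calls against the Trem2 knockout (limma adjusted p = 0.997) and against the Grn knockout (0.999). The Grn knockout against WT lost its call there too (0.584). The Trem2 knockout against WT gained a call without Grn knockout replicate 1 (0.0387) or replicate 4 (0.0296), with a minimum mean of 50 (0.0492), with a trended and robust variance (0.0282) and with voom (0.0414). The interaction is the test of a difference between the 2 backgrounds, and it was not called. Both averaged effects of C1qb were called in all 16 such fits.

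C1qa, the A chain, had the lowest interaction of these 4 genes. It measured 598, 544, 600.0 and 637 in double knockouts, 826, 963, 688 and 894 in Grn knockouts, 579, 504, 409.6 and 389 in Trem2 knockouts and 559.8, 539.6, 530.1 and 503 in WT. The double knockout lay below the Grn knockout without overlap, and its range overlapped that of WT. The effect of losing Grn was 0.35 in mice lacking Trem2 (limma adjusted p = 0.793) and 0.65 in mice with Trem2 (limma adjusted p = 0.0144). The interaction was -0.30 (95% interval -0.66 to 0.07, limma adjusted p = 0.955). All 4 double knockout animals lay below the additive value of 729 normalized counts, with a mean of 595. C1qa was therefore neither called nor bounded near additivity. Its unadjusted p was under 0.05 in 3 of 27 other moderated fits on a log scale, with sample weights (interaction -0.38), without Grn knockout replicate 3 (-0.39) and without Trem2 knockout replicate 4 (-0.38). The adjusted p over all 27 was never below 0.697.

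The Grn knockout against WT lost its C1qa call in 4 of 16 fits that left out 1 animal, which were Grn knockout replicate 2 or 4 and WT replicate 3 or 4 (limma adjusted p 0.0538 to 0.0766). That call was also lost with scaling to the positive controls (limma adjusted p = 0.543). The averaged Trem2 effect on C1qa was -0.35 (limma adjusted p = 0.157) and was called without Trem2 knockout replicate 1 (0.0340) and with sample weights (0.0179). The double knockout against the Grn knockout was -0.49 (adjusted p = 0.216) and was called without Grn knockout replicate 3 (0.0478), with sample weights (0.00539) and on unlogged values with a trended variance (0.0331).

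C1qc, the C chain, was bounded near additivity. It measured 495, 438, 553 and 539 in double knockouts, 652, 694, 584 and 710.5 in Grn knockouts, 427, 451, 430.2 and 328 in Trem2 knockouts and 525, 491, 440.1 and 509 in WT. All 4 Grn knockout animals exceeded every other animal, and the double knockout overlapped WT. The interaction was -0.11 (95% interval -0.44 to 0.21, limma adjusted p = 0.996), with 506 normalized counts observed in the double knockout and 545 expected. The lower end of that interval, -0.44, is larger in size than either averaged effect below, so similar effects in the 2 backgrounds are not shown. The averaged effect of losing Grn was 0.37 (SE 0.08, limma adjusted p = 0.0295). That call was lost in 8 of 16 fits leaving out 1 animal, those without double knockout replicate 1, 3 or 4, Grn knockout replicate 1, 2 or 4, or WT replicate 2 or 3 (adjusted p 0.0517 to 0.0888). The averaged effect of losing Trem2 was -0.33 (limma adjusted p = 0.144). That effect was called with quantile normalization (0.0335), recentring on the median (0.0246) and sample weights (0.0330). The Grn knockout against WT (adjusted p = 0.177) was called with recentring on the median (0.0220), on unlogged values (0.0377, and 0.0244 with a trended variance) and without Trem2 knockout replicate 4 (0.0372), and the double knockout against the Grn knockout (0.309) with sample weights (0.0293), all by limma.

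Cd68 carried the largest response to the loss of Grn among these genes. It measured 159.6, 145, 138 and 168 in double knockouts, 184, 220.4, 182 and 181 in Grn knockouts, 96.4, 116, 84.7 and 96.0 in Trem2 knockouts and 131, 91.9, 107 and 113 in WT. The double knockout was below the Grn knockout and above both the Trem2 knockout and WT, with no overlap in any of the 3 pairs. Losing Grn raised Cd68 by 0.64 in mice lacking Trem2 (SE 0.12, limma adjusted p = 0.0142) and by 0.79 in mice with Trem2 (SE 0.12, limma adjusted p = 0.00194). The effect of losing Trem2 was -0.32 in mice lacking Grn (limma adjusted p = 0.492) and -0.17 in mice with Grn (adjusted p = 0.806). The interaction was -0.16 (95% interval -0.50 to 0.19, limma adjusted p = 0.996), just outside the limit used for a bounded gene. All 4 double knockout animals were below the additive value of 170.0 normalized counts, with a mean of 153. The call in mice lacking Trem2 was lost in 5 of 16 fits that left out 1 animal, which were double knockout replicate 1 or 4 and Trem2 knockout replicate 1, 3 or 4 (adjusted p 0.0573 to 0.0767). It was lost on unlogged values too (limma adjusted p = 0.129), and with scaling to the positive controls (0.997). That scaling also lost the call in mice with Trem2 (limma adjusted p = 0.260). The averaged Grn effect of 0.72 (adjusted p = 8.11e-05) was called in all 16.

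The choice of scale matters for these genes, because 2 effects that multiply do not add in counts. On unlogged values the additive expectation for the double knockout was 780.0 normalized counts for C1qa, 905 for C1qb, 578 for C1qc and 179 for Cd68, each above its log-scale value. The unlogged interaction was -185.2 counts for C1qa (SE 74.1), -102.9 for C1qb (SE 73.8), -71.5 for C1qc (SE 49.2) and -26.4 for Cd68 (SE 16.2). All 4 had a limma adjusted p of 0.961, and C1qa alone had an unadjusted p under 0.05. In counts the double knockout therefore sat further below the additive value than on the log2 scale, and in neither scale was the shortfall called.

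**Figure D2:**
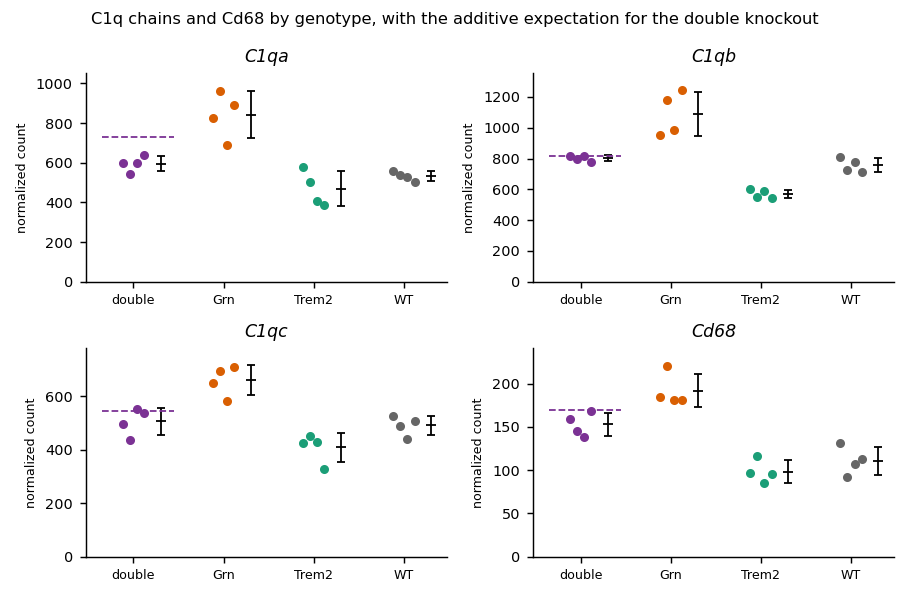
Normalized counts of C1qa, C1qb, C1qc and Cd68 in each animal (points) for the double knockout, Grn knockout, Trem2 knockout and WT, with the mean and SD beside them (n = 4 each). The dashed line over the double knockout is the value expected from the other 3 groups if the log2 effects add, at 818 for C1qb against an observed mean of 802, and at 729 for C1qa against 595.

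The 24 genes with an unadjusted p under 0.05 are described as the nearest to non-additive, with no claim for any single one, since all had an adjusted p of 0.955. The 19 with a positive interaction were mostly of one form, with both single knockouts below WT and the double knockout above both of them. That form held for 18 of the 19 and for 143 of all 708 genes (20.2%). Of the 5 with a negative interaction, 4 had both single knockouts above WT and the double knockout below both, a form found in 79 of 708 genes (11.2%). The sign of the interaction favours these forms, so the counts are a description only.

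Pllp, which encodes the myelin membrane protein plasmolipin, measured 340.3, 259, 255 and 302 in double knockouts, 259, 307, 264 and 255 in Grn knockouts, 255, 247, 249.9 and 311 in Trem2 knockouts and 272, 379, 388 and 412 in WT. In WT, 3 of the 4 animals were above every animal of the other groups, and the 3 mutant groups overlapped. The interaction was 0.52 (0.13 to 0.91, limma adjusted p = 0.955). Dlat, a subunit of the mitochondrial pyruvate dehydrogenase complex, measured 1015, 1065, 1004 and 1073 in double knockouts, 907, 949, 931 and 963 in Grn knockouts, 891, 961, 985 and 996 in Trem2 knockouts and 961, 1013, 1032 and 1081 in WT. The double knockout exceeded both single knockouts without overlap and lay within the WT range, with a small interaction of 0.24 (0.07 to 0.42). Htt, the gene of huntingtin, measured 521, 556, 563 and 545 in double knockouts, 463, 424, 463 and 472 in Grn knockouts, 417, 476, 519 and 502 in Trem2 knockouts and 512, 494, 434 and 559 in WT. Here too the double knockout was above both single knockouts in every animal, and the interaction was 0.32 (0.07 to 0.57).

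A further 14 positive genes ranged in interaction between 0.24 for the kainate receptor subunit Grik2 and 0.71 for the neurotrophin receptor Ngfr, whose group means were 28.0, 19.7, 21.8 and 25.2 in the double, Grn and Trem2 knockouts and WT. They held 2 cytokine receptor genes of low level, Il10ra at 0.47 (mean 48.9 normalized counts) and Il15ra at 0.42 (mean 29.4). Regulators of transcription, the cell cycle or protein turnover were Taf9 (0.36), Cdk7 (0.33), Abl1 (0.42) and Cul1 (0.33). The remaining ones were Dgke (0.24), Hmgb1 (0.26), Magee1 (0.30), the proton pump subunit Atp6v0e2 (0.38), the serotonin receptor Htr1a (0.36) and the astrocytic folate enzyme Aldh1l1 (0.35). Il10ra, Il15ra and Ngfr had mean levels under 50, against 13.4 to 18.3 for the scaled negative controls by group, whose interaction of 0.47 had the same sign, and the 3 genes above 1000 were Atp6v0e2, Cul1 and Magee1. For Ngfr, every WT and every Trem2 knockout animal lay below its own background threshold, and the other groups had animals on both sides of it.

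Of the 5 negative genes, Xbp1 was the most abundant. It encodes a transcription factor of the unfolded protein response and measured 602, 752, 698 and 617 in double knockouts, 746, 815, 824 and 708 in Grn knockouts, 847, 682, 762 and 856 in Trem2 knockouts and 763, 700.5, 605 and 677 in WT. The 4 groups overlapped, the 2 single knockouts having the higher means, and the interaction was -0.41 (-0.71 to -0.12, limma adjusted p = 0.955). Ncf1, a cytosolic subunit of the phagocyte NADPH oxidase, measured 37.1, 47.4, 42.3 and 46.2 in double knockouts, 84.4, 59.3, 48.8 and 50.4 in Grn knockouts, 51.3, 43.8, 47.8 and 43.2 in Trem2 knockouts and 51.0, 34.0, 46.5 and 38.5 in WT. The double knockout lay below the Grn knockout without overlap and overlapped the other groups, with an interaction of -0.59 (-1.07 to -0.11). The others were Uchl1, a neuronal deubiquitinase (-0.41), Trp53, the gene of p53 (-0.45), and Lox, a collagen cross-linking enzyme (-0.47). Their mean levels were 34.0, 78.5 and 24.4 normalized counts, against 13.4 to 18.3 for the scaled negative controls by group. For Lox, every WT animal lay below its own background threshold and every Grn knockout animal above it.

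**Figure D3:**
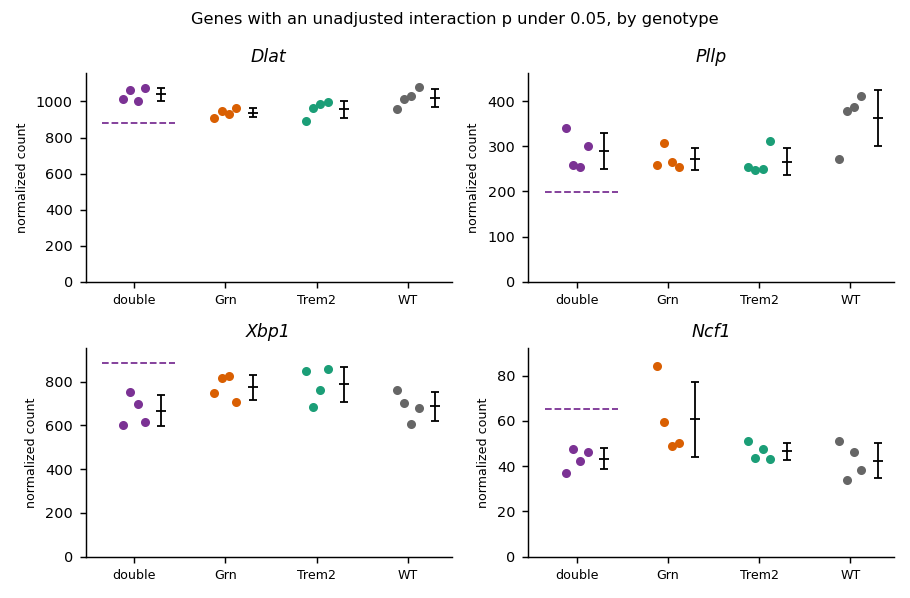
Normalized counts of Dlat, Pllp, Xbp1 and Ncf1 in each animal (points) of the double knockout, Grn knockout, Trem2 knockout and WT, with mean and SD (n = 4 each). The dashed line is the additive value for the double knockout, at 884 for Xbp1 above all 4 animals. None of these genes passed after adjustment.

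Gene families were set against the whole panel, of which 40.4% of interactions were below 0, 56.2% were bounded and the median was 0.03. The share bounded in a list also follows the level of its members, as described above, and the lists were not matched for level. When the counts were scaled to the positive control probes in place of the reference genes, the median of all genes moved to -0.21 and every list median measured was below 0, so the counts are read against those of the panel. The lists of activated microglia, innate signalling, interferon, reactive astrocyte, GABAergic, autophagy, oxidative stress and reference genes also had a median below 0 after quantile normalization, recentring on the median or background subtraction. In the list of homeostatic microglia, 7 of 8 genes were below 0, with a median of -0.07 and 4 bounded. The purinergic receptor P2ry12 stood at -0.21 (-0.62 to 0.21), the surface protein Tmem119 at -0.15 (-0.55 to 0.25), the fractalkine receptor Cx3cr1 at -0.05 (-0.40 to 0.30) and Csf1r at -0.03 (-0.41 to 0.34). Fcrls, an Fc receptor-like gene of microglia, was the 1 member above 0, at 0.20 (-0.30 to 0.69).

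In the list of activated microglia, 3 of 7 genes were below 0 and 2 were bounded, with a median of 0.03. Apoe, the main lipid carrier of the brain, measured 4429, 4078, 4295 and 4129.7 in double knockouts, 4717, 4779, 4363 and 4589.6 in Grn knockouts, 4626, 3978, 3932 and 3332 in Trem2 knockouts and 4058, 4002, 4092 and 3853 in WT. The 2 highest animals were in the Grn knockout and the lowest was Trem2 knockout replicate 4, and the interaction of -0.10 was bounded (-0.35 to 0.14). The tetraspanin gene Cd9 had means of 800.1 ± 96.6 in double knockouts, 861 ± 69.5 in Grn knockouts, 692 ± 22.3 in Trem2 knockouts and 828 ± 101 in WT. All 4 Trem2 knockout animals lay below every animal of the other groups, and the interaction was also bounded, at 0.14 (-0.15 to 0.43). Cd33, a sialic acid receptor, was at 0.37 (-0.06 to 0.81), and the pattern receptor Tlr2 was at -0.27 (-0.88 to 0.34). The highest animal had 58.1 normalized counts for Cd33 and 36.0 for Tlr2, both in the Grn knockout. For Tlr2, every WT animal lay below its own background threshold and every Grn knockout animal above it.

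The complement list had 5 of 6 members below 0 and a median of -0.10, and 3 of the 6 are the C1q chains described above. Its other members were C3, the central component, at -0.39 (-1.08 to 0.30), C4a at 0.13 (-0.62 to 0.89) and the complement receptor subunit Itgam at -0.09 (-0.54 to 0.35). Of 25 genes of innate signalling and cytokines, 12 were below 0, 7 were bounded and the median was 0.02. Their lowest members were Ncf1 and Tgfbr2, a TGF-beta receptor, at -0.42 (-0.85 to 0.00), and the highest was Il10ra. All 3 interferon-related genes tested were bounded, among them the immunoproteasome subunits Psmb8 at 0.0012 (-0.31 to 0.31) and Psmb9 at -0.0053 (-0.44 to 0.43).

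Of the 2 lysosomal lists, the hydrolases had 88.9% of genes bounded and the membrane and storage disease genes 57.1%, against 56.2% of the panel. Of 9 lysosomal hydrolases 8 were bounded, the exception being the glucuronidase Gusb at 0.21 (-0.16 to 0.59). Gaa, the acid glucosidase, had means of 2377 ± 186 in double knockouts, 2438 ± 129 in Grn knockouts, 2142 ± 142 in Trem2 knockouts and 2458 ± 203 in WT. The groups overlapped and its interaction was 0.16 (-0.08 to 0.39). Of 7 genes of the lysosomal membrane or storage disease, 4 were bounded. Lamp1, the main lysosomal membrane glycoprotein, stood at 0.07 (-0.10 to 0.23), and the lipofuscinosis genes Cln8 and Cln3 stood at 0.21 (-0.01 to 0.42) and -0.23 (-0.51 to 0.06).

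Of the 9 subunits of the vacuolar proton pump, which acidifies lysosomes and synaptic vesicles, 8 were above 0 and 8 were bounded, with a median of 0.11. Atp6v0e2 was the exception to the bound. It measured 4234, 4396, 4393 and 4713 in double knockouts, 3575, 3747, 3744 and 4363 in Grn knockouts, 3164, 3700.1, 4861 and 4405 in Trem2 knockouts and 4479, 4258, 4395 and 4885 in WT. The double knockout lay above 3 of 4 Grn knockout animals and inside the range of the Trem2 knockout, and the interaction was 0.38 (0.05 to 0.71, limma adjusted p = 0.955). The next highest was Atp6v1e1 at 0.20 (-0.05 to 0.44), and the median of the family was 0.02 after quantile normalization.

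Myelin and oligodendrocyte genes had the highest median of the lists, 0.14, with 14 of 18 above 0 and 3 bounded. Besides Pllp, the highest were Fa2h, a fatty acid hydroxylase of myelin lipids, at 0.29 (-0.05 to 0.63), and Bcas1 at 0.27 (-0.28 to 0.83). Mal, a myelin proteolipid, measured 1035, 1070.0, 998 and 1098 in double knockouts, 1137, 1703, 1092 and 1335 in Grn knockouts, 1249.9, 1408, 1060.4 and 1231 in Trem2 knockouts and 1424, 1471, 1609 and 1670.3 in WT. The double knockout and the Trem2 knockout both lay below WT without overlap, and the interaction was 0.02 (-0.35 to 0.39), so 1036 normalized counts were expected from the single knockouts and 1050.2 observed. Mbp stood at 0.02 (-0.49 to 0.53) and the transcription factor Olig2 at -0.03 (-0.50 to 0.44). The precursor marker Cspg4 stood at -0.14 (-0.57 to 0.30).

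Of 7 astrocyte genes 4 were bounded, and the median was 0.07. Of 7 genes of reactive astrocytes 1 was bounded, with a median of 0.05. Gfap, the intermediate filament of astrocytes, measured 906, 691, 695 and 681 in double knockouts, 914, 1092, 1242 and 1076 in Grn knockouts, 781, 581, 753 and 438 in Trem2 knockouts and 693, 803, 1053 and 628 in WT. The Grn knockout was above the double knockout and the Trem2 knockout without overlap, though not above WT, and the interaction was -0.22 with a wide interval (-0.78 to 0.34). The ferroxidase Cp had means of 122 ± 21.2 in double knockouts, 174 ± 11.1 in Grn knockouts, 139.8 ± 21.8 in Trem2 knockouts and 168 ± 23.8 in WT. It too was highest in the Grn knockout among the mutants without overlap, with an interaction of -0.25 (-0.66 to 0.15). Endothelial and mural genes had a median of -0.01 with 8 of 15 below 0 and 1 bounded, the lowest being Icam2 at -0.66 (-1.74 to 0.41) and Flt1, a VEGF receptor, at -0.44 (-0.92 to 0.03).

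The share of bounded genes differed between the neuronal lists. It was 80% of presynaptic genes, 66.7% of cytoskeleton and adhesion genes, 42.9% of glutamatergic genes and 53.8% of GABAergic genes. The panel had 56.2%, and its genes at 1000 or more normalized counts, a level that most presynaptic genes reached, had 84.2%. The list of presynaptic genes had 12 of 15 bounded and a median of 0.05. The list of neuronal cytoskeleton and adhesion had 10 of 15 bounded and a median of 0.06, with Map2, a dendritic microtubule protein, at 0.29 (-0.01 to 0.59) and Ncam1, an adhesion molecule, at 0.11 (-0.08 to 0.29). Genes of the glutamatergic synapse had 15 of 21 above 0, 9 bounded and a median of 0.07. Slc17a6, the vesicular glutamate transporter of subcortical neurons, was highest at 0.38 (-0.13 to 0.90) and the scaffold Homer1, which neuronal activity can induce, lowest at -0.37 (-0.94 to 0.20). GABAergic genes had 7 of 13 bounded and a median of 0.02.

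Markers of small brain nuclei were mostly not bounded. Of 17 monoamine, cholinergic and striatal genes 3 were bounded, with a median of 0.09. The serotonin transporter Slc6a4 had means of 18.8 ± 6.49 in double knockouts, 44.5 ± 32.6 in Grn knockouts, 20.2 ± 17.2 in Trem2 knockouts and 49.7 ± 20.4 in WT. Its interval ran over -1.15 to 2.24 around an interaction of 0.55. The dopamine enzyme Th stood at 0.58 (-0.60 to 1.75). Single animals spread widely for these genes, with Slc6a4 at 21.1, 13.5, 26.9 and 13.6 in double knockouts, 11.8, 26.5, 54.2 and 85.7 in Grn knockouts, 7.32, 13.2, 45.6 and 14.8 in Trem2 knockouts and 27.8, 38.0, 72.2 and 61.0 in WT.

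Other families lay close to 0. Of 9 autophagy genes 8 were bounded, with a median of 0.02, the exception being the autophagy receptor Optn at 0.35 (-0.02 to 0.71). Of 10 genes of cholesterol and lipid handling 8 were bounded, with a median of 0.04. Of 9 genes of oxidative stress 7 were bounded, with a median of 0.0042, and of 9 genes of chaperones, the unfolded protein response and the proteasome 7 were bounded, with a median of -0.02 and Xbp1 as the lowest. Of the 10 reference genes that set the scale, 9 were bounded. The exception was Asb7 at -0.30 (-0.63 to 0.02).

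Markers of other cells that whole brain could hold were few. Cd4 stood at -0.31 (-1.18 to 0.57) and the monocyte receptor Ccr2 at -0.20 (-1.03 to 0.64), with Ccr2 means of 28.9 in double knockouts, 28.7 in Grn knockouts, 28.4 in Trem2 knockouts and 23.6 in WT, close to the negative controls. Of the lists of choroid plexus and erythrocyte markers, 0 genes were tested.

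**Figure D4:**
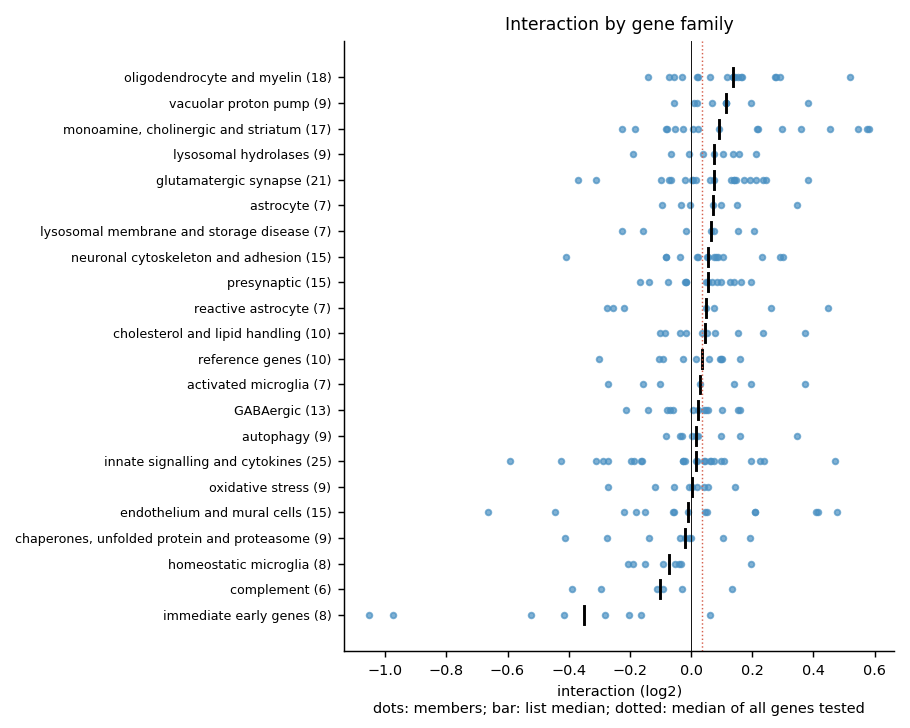
Interaction (x axis, log2) of the tested members of 22 gene lists (rows, number tested in brackets), sorted by median. Dots are genes, the black bar is the list median and the dotted line the median of all 708 genes at 0.03. Oligodendrocyte and myelin genes have the highest median at 0.14 and immediate early genes the lowest at -0.35. With scaling to the positive controls all these medians lay below 0.

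The list of immediate early genes, most of which neurons switch on within minutes of activity, had the lowest median of the lists, -0.35. In it 7 of 8 members were below 0 and 2 were bounded. None reached an unadjusted p under 0.05. Some members rose and fell together between animals, so the 7 are not 7 separate observations. For Npas4, Fos, Arc and Egr1, replicates 1 and 4 were the highest WT animals and replicate 2 the lowest. Npas4, an activity-dependent transcription factor of neurons, measured 52.2, 53.2, 91.3 and 97.8 in double knockouts, 193, 195, 88.0 and 171 in Grn knockouts, 203, 379, 98.9 and 196 in Trem2 knockouts and 246, 113, 196 and 329 in WT. The double knockout lay below the Trem2 knockout and WT without overlap and overlapped the Grn knockout through replicate 3 of that group. Its interaction was -1.05 (-2.26 to 0.15, limma adjusted p = 0.955), with 148 normalized counts expected and 73.6 observed. The effect of losing Grn was -1.46 in mice lacking Trem2 (limma adjusted p = 0.329) and -0.41 in mice with Trem2 (adjusted p = 0.996).

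Fos, a subunit of the AP-1 factor, measured 76.3, 249.6, 293 and 152 in double knockouts, 285, 518, 188 and 489 in Grn knockouts, 284, 690.3, 262 and 580.0 in Trem2 knockouts and 698, 138, 391 and 835 in WT. The double knockout had the lowest animal and WT the highest, but all groups overlapped, and the interaction of -0.98 had an interval of -2.66 to 0.71. Egr1 was at -0.52 (-1.59 to 0.55), the synaptic regulator Arc at -0.42 (-1.82 to 0.98) and Nr4a2 at -0.28 (-0.89 to 0.33). The bounded members were Jun at -0.16 (-0.49 to 0.17) and Creb1 at -0.20 (-0.45 to 0.05). Creb1 is in the list but is not itself an immediate early gene. The neurotrophin gene Bdnf was at 0.06 (-0.64 to 0.76).

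**Figure D5:**
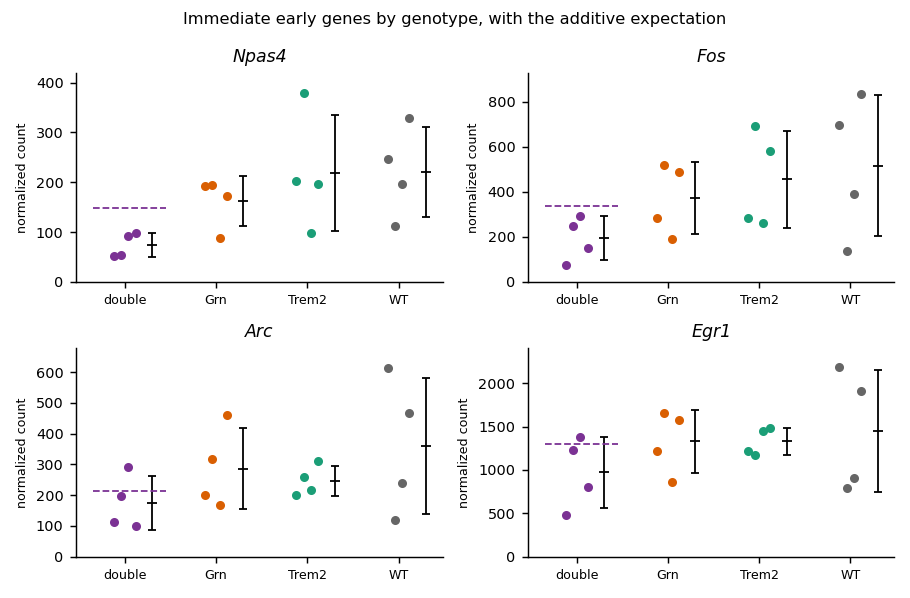
Normalized counts of Npas4, Fos, Arc and Egr1 in each animal (points) of the double knockout, Grn knockout, Trem2 knockout and WT, with mean and SD (n = 4 each). The dashed line is the additive value for the double knockout, 148 for Npas4, which lies above all 4 double knockout animals. The WT animals are widely spread in all 4 genes.

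The interaction and an averaged effect both combine 4 groups. The interaction is the difference of the effects in the separate backgrounds, and an averaged effect is their mean. The standard error of the interaction is therefore larger over the same animals (for Xbp1, 0.139 against 0.0693). This limits what 4 animals a group can bound. The p-values measure the spread between these animals. The sources used here name no cartridge or run day, so no within-batch value could be had.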

How the data were processed

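Total RNA of whole brain from 16 mice (4 per genotype, grouped by the genotype label) was purified with a silica column kit, per the labels' protocols. The deposited signal of each gene is a whole count times 1 factor per animal (0.907 to 1.36): at least 99.7% of values in each animal came out whole within 0.02. The geometric mean of 10 reference genes is 322 in every animal, so the deposited signal is scaled to them, and no background was subtracted. The sources used here do not name the software. Control probes (6 positive, 8 negative) are unscaled. All 770 symbols matched a RefSeq table (GRCm38.p6), 763 directly and 7 as synonyms.

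Values were taken as log2(value + 1) for genes with a mean of at least 20 and fitted with limma 3.58.1 (R 4.3.3; lmFit, eBayes) as 4 group means with 12 residual degrees of freedom. Contrasts were the interaction, each loss averaged over the other gene's state, and each loss within 1 background. Two-sided p-values were adjusted by the Benjamini-Hochberg method over all 708 genes, with a threshold of 0.05. The background threshold is the mean plus 2 SD of an animal's negative controls. All 24 pairs of animals within groups differed beyond counting error (chi-square divided by degrees of freedom, 3.51 to 16.2), so each animal counts as 1 replicate. The script was tested on simulated data.

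The genes and lists were chosen with earlier results of these data known. The naming rule takes Grn, Trem2, any gene called by the interaction or by an averaged effect, up to 10 genes in each direction with the most extreme interaction t among those with an unadjusted p under 0.05, the 2 members of each of 27 lists with the smallest interaction p, and a set of microglial, complement, astrocyte, myelin and activity genes. Other genes were named after their values were seen, and a few genes that the rule or the lists hold are not reported here. The other settings were pseudocounts of 10 and 0.1, no filter and a minimum mean of 50, a trended and robust variance, quantile normalization, recentring on the median, scaling to the positive controls, background subtraction, sample weights, unlogged values and leaving out each animal. A trended variance on unlogged values, limma's voom on the whole counts, and scaling to the positive controls with each gene's own variance were added after seeing the data.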

Additional observations from a re-analysis of the deposited data

Results flagged for a closer look

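Of 264 groups of 4 animals (66 genes in 4 genotypes), 18 held an animal set apart from the other 3, where its gap to the nearest animal took more of the group's range than Dixon's 95% critical value allows. Chance flags about 1 in 20 groups, or 13.2 of 264. In the double knockout, these were Gfap in replicate 1 (906 normalized counts, highest), Park2 in replicate 2 (119.96, highest), and Cln3 (113) and Flt1 (69.2) in replicate 3, both lowest. In the Grn knockout, Cd68 was highest in replicate 2 (220.4) and Cln8 in replicate 4 (230.4). Replicate 3 of that group was lowest for Trem2 (188), Csf1r (477), Npas4 (88.0) and Sod2 (2220.1).

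In the Trem2 knockout, replicate 4 was highest for Pllp (311), Cd33 (40.1) and Htr1a (291) and lowest for C1qc (328) and Uchl1 (31.6). Replicate 1 of that group was highest for Tlr2 (29.3). In WT, Syt7 was lowest in replicate 3 (1313) and Chrna7 in replicate 2 (277). Each value is 1 animal, and what sets these animals apart was not tested.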

How the results depend on the processing

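The 29 other settings with a moderated variance were 13 of processing and 16 that each left out 1 animal. In 27 of 29, 0 interactions were called. The exceptions were scaling to the positive controls, with 1 (Prl, -2.42 on the log2 scale, limma adjusted p = 0.000282, with an SE of 0.477 that this fit gave to every gene), and unlogged values with a trended variance, with 1 (Trem2). Scaling to the positive controls also gave 5 interactions with an unadjusted p under 0.05, 0 bounded genes and a median of -0.21. With it the averaged Grn loss called 3 genes, the Grn knockout against WT 1 and the double knockout against the Grn knockout 1. The Trem2 knockout against WT called 2. Among the 24 genes described above as nearest to non-additive, the interactions of Dlat (-0.0032) and Grik2 (-0.0079) reversed. Genes outside these 24 changed sign too, since the median of all genes moved below 0. The sums of the positive controls themselves had an interaction of 0.33. The Trem2 knockout against WT also called 2 genes with a minimum mean of 50, with a trended and robust variance and with voom. Sample weights gave 4 genes for the averaged Trem2 loss and 6 for the double knockout against the Grn knockout, and unlogged values gave 1 for the double knockout against the Trem2 knockout. With that scaling and each gene's own variance, a setting added after seeing the data, the SE of Prl was 1.16 (limma without moderation, adjusted p = 0.997), 0 interactions were called and 1 had an unadjusted p under 0.05. The 6 other comparisons then each called 1 gene, Grn or Trem2, and Dlat (-0.0032) and Grik2 (-0.0079) had the same values. The cause of the other changes was not tested.

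With 1 animal left out, the unadjusted count ranged between 14 and 47, the bounded genes between 365 and 404 and the median between 0.01 and 0.05. The averaged effects called 4 to 6 genes for Grn and 2 to 4 for Trem2. Calls numbered 1 to 3 for the double knockout against the Grn knockout, 1 to 3 for the double knockout against the Trem2 knockout, 3 to 5 for the Grn knockout against WT and 1 to 2 for the Trem2 knockout against WT. No paired analysis was possible because the labels give each animal its own number, shared with no other group. The 2 planned count-model tests were not run, and limma's voom on the whole counts was run in their place. Of 86 genes below 50 normalized counts 3 were bounded, and the part of the background in this was not tested.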

Other observations

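Prl, the gene of the pituitary hormone prolactin, had the lowest interaction of the 708 genes, -2.19 (95% interval -4.57 to 0.20, limma adjusted p = 0.955), and was chosen after its value was seen. It measured 19.1, 20.3, 10.6 and 8.15 in double knockouts, 24.5, 19.1, 16.2 and 30.0 in Grn knockouts, 54.9, 218, 109 and 8.44 in Trem2 knockouts and 84.6, 10.99, 13.8 and 10.7 in WT. The Trem2 knockout held the 2 highest animals, 218 and 109, and also 1 of the lowest, and 1 WT animal stood apart at 84.6. No double knockout animal was above 20.3, and each group overlapped every other group. Every double knockout animal lay below its own background threshold. So did all WT animals except that at 84.6, all Grn knockout animals except that at 24.5, and the Trem2 knockout animal at 8.44. The interaction of Prl therefore sets values mostly at background against a few higher animals.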
